A study of Mus musculus with 16 samples.

Results

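The peaks described here are the regions of open chromatin that were most accessible in lung metastases of a mouse pancreatic cancer model. They were chosen by a fixed rule from a table of normalized read counts per peak. A peak was taken when its mean over the 6 lung libraries was at least 40 and at least 2 times both the mean of the 4 liver libraries and the mean of the 6 pancreas libraries, and the distal end of chromosome 6 (2411 peaks, 181 of which would have met it) was left out. Of 136630 nuclear peaks, 879 (0.643%) met it and are called lung-biased below. The same rule with the organs exchanged took 15380 peaks for the liver and 9913 for the pancreas. The rule used the lung values themselves, so the height of these peaks in the lungs is a description and was not tested.

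Chromatin was profiled by ATAC-seq, in which the Tn5 transposase cuts accessible DNA, in mKate2+ tumor cells isolated by FACS, with 60000 cells and 1 mouse per library. The cells were KC-shSmad4 lines. They derive from pancreatic tumors that carried Ptf1a-Cre, the reporter and transactivator allele LSL-rtTA3-IRES-mKate2 at Rosa26 and, at Col1a1, a GFP-linked shRNA against Smad4 that doxycycline induces, so that Cre acted in the pancreatic epithelium and every group carried these alleles. Such lines commonly carry a Cdkn2a/b deletion, and the labels do not say which line a library came from. Hosts were female Foxn1 nu nude mice of 6 to 8 weeks, which lack T cells. Cells were injected into the pancreas, into the spleen for liver metastases, or into the tail vein for lung metastases. Mice kept on doxycycline had Smad4 off (3 pancreas, 2 liver and 3 lung libraries), and mice taken off it for 14 days, after 4, 5 or 6 weeks in the pancreas, liver and lungs, had Smad4 on again (3, 2 and 3 libraries). Column names of the lung libraries give day 15. Organ, injection route and time of growth cannot be told apart in this design. In bulk libraries, more cells with an open region and a region more open per cell cannot be told apart either.

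Most regulatory DNA outside promoters acts as enhancers, stretches of open chromatin where transcription factors bind and from which they raise the output of genes on the same chromosome. Enhancers differ between cell types and cell states more than promoters do. AP-1 factors, dimers of the FOS and JUN families, and RUNX factors occupy many enhancers of pancreatic carcinoma cells, FOX factors such as FOXA1 and FOXA2 can bind closed chromatin, and NF-kB proteins act in inflammation. SMAD4 is the common partner of the SMADs that carry TGF-beta and BMP signals to DNA.

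The sequences shown first are the central 200 bases of the 6 peaks whose lung mean stood highest above the other organs among those in which each of the 6 lung values exceeded each of the 10 others. They are shown because they are the clearest cases of lung-biased accessibility, and their values follow. All are read from mm10 on the plus strand. Capitals mark matches on either strand to the consensus letters of AP-1 (TGACTCA), RUNX (TGTGGT or TGCGGT), FOX (TGTTTAC or TATTTAC), ETS (CCGGAAG or CAGGAAG) or NF-kB (GGGANTTCC).
Adamts3 peak, chr5:89936070-89936269: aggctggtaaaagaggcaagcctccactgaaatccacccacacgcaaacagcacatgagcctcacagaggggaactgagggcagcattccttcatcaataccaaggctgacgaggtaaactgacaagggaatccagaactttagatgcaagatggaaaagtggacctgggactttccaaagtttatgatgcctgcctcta
Peak inside Ofcc1, chr13:40115042-40115241: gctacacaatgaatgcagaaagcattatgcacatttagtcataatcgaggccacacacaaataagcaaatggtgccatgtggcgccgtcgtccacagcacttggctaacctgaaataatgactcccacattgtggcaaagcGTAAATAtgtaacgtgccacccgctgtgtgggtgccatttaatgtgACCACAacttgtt
Asic2 peak, chr11:81240006-81240205: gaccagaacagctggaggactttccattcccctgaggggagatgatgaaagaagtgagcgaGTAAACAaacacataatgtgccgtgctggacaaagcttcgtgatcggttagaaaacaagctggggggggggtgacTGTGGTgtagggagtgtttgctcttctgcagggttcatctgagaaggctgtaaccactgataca
Smpd3 peak, chr8:106330198-106330397: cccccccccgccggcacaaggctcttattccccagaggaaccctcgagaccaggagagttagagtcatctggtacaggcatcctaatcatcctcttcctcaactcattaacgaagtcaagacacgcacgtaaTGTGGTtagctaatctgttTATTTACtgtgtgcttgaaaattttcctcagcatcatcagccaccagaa
Peak between genes with Runx1 as the nearest start, chr16:93094236-93094435: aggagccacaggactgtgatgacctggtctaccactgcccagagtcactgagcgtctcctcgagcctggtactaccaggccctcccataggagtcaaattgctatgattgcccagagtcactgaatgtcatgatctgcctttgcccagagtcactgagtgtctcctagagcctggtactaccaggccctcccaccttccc
Peak inside Cacna2d3, chr14:29354453-29354652: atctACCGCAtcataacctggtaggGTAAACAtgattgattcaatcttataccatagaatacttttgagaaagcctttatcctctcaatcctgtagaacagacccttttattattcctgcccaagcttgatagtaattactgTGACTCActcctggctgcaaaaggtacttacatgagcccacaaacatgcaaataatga
In 4 of the 6 windows both a RUNX and a FOX match were found, and the Cacna2d3 window also held an AP-1 match. The Adamts3 and Runx1-side windows matched none of the letters searched for the 5 families. The Adamts3 window holds gggactttcc, which the NF-kB letters used here do not match, and other variants of a site were not searched. Of the 179 peaks in which each lung value exceeded each other value, 25.7% held RUNX and 16.8% FOX, against 22.2% and 8.06% of all nuclear peaks. A match describes letters and does not show that a factor was bound.

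The libraries did not contribute evenly to these peaks. The median normalized count over the 879 peaks lay between 60.4 and 117 in the lung libraries, between 16 and 26.8 in the liver libraries and between 22.2 and 56.0 in the pancreas libraries, whereas the median over all nuclear peaks lay between 48.9 and 59.3 in each library. Smad4-off lung replicate 1 had the highest lung median (117) and held the highest lung value in 375 of the 879 peaks. Smad4-on lung replicate 3 did so in 270, Smad4-off lung replicate 3 in 133, and the remaining lung libraries in 27, 29 and 45. In 46 peaks 1 library held over 50% of the summed lung values, and in 45 of them it was Smad4-off lung replicate 1. Among the pancreas libraries Smad4-on replicate 3 stood apart with a median of 56.0 against 22.2 to 33.3 in the other five. Leaving that library out of the rule brought the number of peaks to 1917, of which 859 were among the 879. Without Smad4-off lung replicate 1 the rule took 691 peaks, of which 556 were among the 879, and without the other libraries, each left out in turn, between 720 and 1149.

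**Figure D1:**
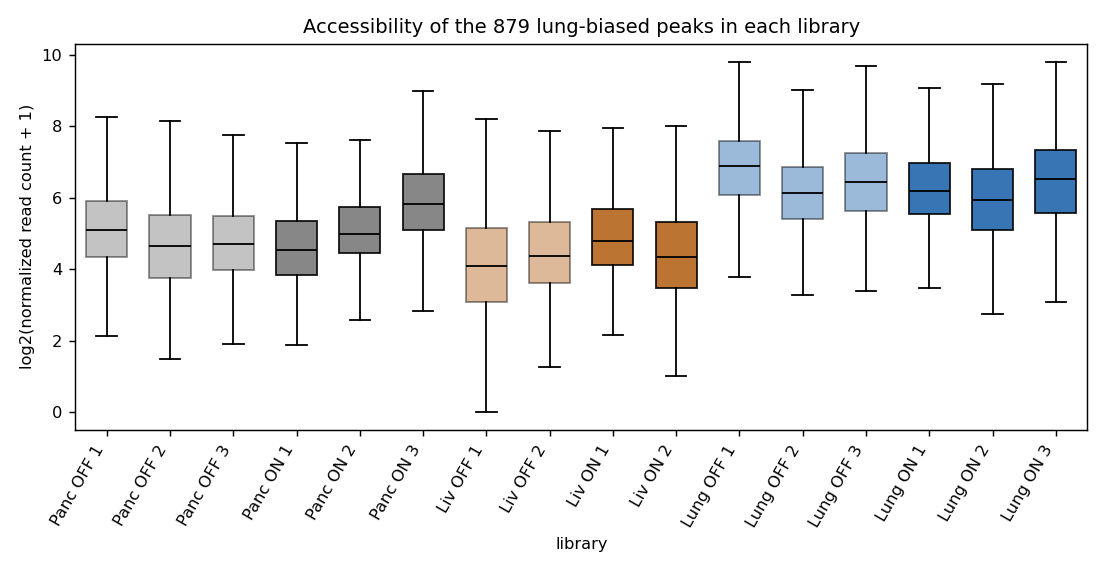
Box plot of log2(normalized read count + 1) of the 879 lung-biased peaks in each of the 16 libraries, with gray for pancreas, brown for liver, blue for lung, paler boxes for Smad4 off, boxes for the quartiles and whiskers for values within 1.5 times the interquartile range. The 6 lung boxes sit highest because the rule chose the peaks on these values, Smad4-off lung replicate 1 is the highest of all, and Smad4-on pancreas replicate 3 is the highest library outside the lungs.

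Most lung-biased peaks were modest in height and in bias. The lung mean had a median of 82.3 normalized counts over the peaks and reached 1479 at a peak in an intron of Dap (chr15:31235077-31238214), where the pancreas mean was 734 and the liver mean 699. It was below 100 in 544 peaks. The ratio of the lung mean to the higher of the other means had a median of 2.32 and a maximum of 7.50, was below 2.5 in 575 peaks, at least 3 in 128 and at least 4 in 32. The second organ was the pancreas in 729 peaks and the liver in 150, and the median over peaks was 32.6 for the pancreas mean and 21.2 for the liver mean. The highest ratio, 7.50, was at chr14:33820550-33821230, with no start site within 100 kb. Its lung counts were 233, 43.5 and 57.7 with Smad4 off and 33.7, 13.4 and 14.9 with Smad4 on, so that Smad4-off lung replicate 1 held most of the signal. All 6 lung values exceeded all 10 others in 179 peaks (20.4%), against 0.496% of all nuclear peaks, a contrast that the rule itself used.

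At the edge of the rule the peaks inside and outside were alike. The peaks nearest inside the ratio, near AL607142.1 and on chromosome 8 with no start site within 100 kb, had ratios of 2.0006 and 2.001. The peaks nearest outside it, near P2rx4 and Hephl1, had ratios of 1.9985 and 1.9987. The lung means nearest the minimum were 40.2 (near Uaca) and 40.3 inside it and 39.9 (near Zfp560) and 39.96 outside it.

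The peak of highest ratio among those with no overlap lay between genes, 52835 bp from the nearest protein-coding start site, that of Adamts3, a protease that trims the N-terminal propeptide of procollagens and activates VEGF-C (chr5:89935728-89936611). Its counts were 109, 41.3 and 174 in Smad4-off lungs and 67.4, 85.3 and 199.7 in Smad4-on lungs. In the pancreas they were 17.1, 10.7 and 13.0 with Smad4 off and 0.89, 18.6 and 30.7 with Smad4 on, and in the liver 8.64 and 1.39 with Smad4 off and 36.1 and 14.2 with Smad4 on. The lowest lung value, 41.3, stood close to the highest liver value, 36.1, so that the groups did not overlap but nearly touched. The lung mean was 113 ± 62.0 (SD, n = 6), against 15.1 ± 9.84 (SD, n = 6) in the pancreas and 15.1 ± 15 (SD, n = 4) in the liver. A second peak assigned to Adamts3 (chr5:89979888-89980791) had lung counts of 201, 86.9 and 196 with Smad4 off and 85.4, 94.9 and 204 with Smad4 on, and its highest value elsewhere was 62.1.

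An intronic peak of Ofcc1, a gene of little known function, carried the highest counts of the 10 (chr13:40114296-40115987). They were 60.8, 117 and 158 in Smad4-off lungs and 192, 398 and 479 in Smad4-on lungs. Pancreas libraries gave 31.6, 10.7 and 25.9 with Smad4 off and 37.3, 55.7 and 32.2 with Smad4 on, and liver libraries 11.1 and 4.18 with Smad4 off and 51.2 and 11.2 with Smad4 on. Every Smad4-on lung value was above every Smad4-off lung value, and its difference was not called in the lungs alone (adjusted p = 0.51, limma) but was called on average over the organs (1.42 ± 0.35 on the log2 scale, SE, adjusted p = 0.028, limma).

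The other peaks of this kind were lower. An intronic peak of Asic2, an acid-sensing sodium channel, had 30.4, 58.7 and 59.5 in Smad4-off lungs and 50.5, 60.4 and 120.4 in Smad4-on lungs, and between 3.70 and 26.0 elsewhere (chr11:81239778-81240433). An intronic peak of Smpd3, which encodes neutral sphingomyelinase 2, had 13.8, 28.3 and 28.4 in Smad4-off lungs and 34.8, 60.4 and 77.5 in Smad4-on lungs (chr8:106330062-106330534). Elsewhere it stayed between 0 and 13.0, a margin of less than 1 count to the lowest lung value. The 0 was Smad4-off liver replicate 1, where a count of 0 allows up to 3 reads, worth 3.70 normalized counts. The peak with Runx1 as the nearest start site, 268187 bp away, had 23.0, 42.4 and 47.4 in Smad4-off lungs, 43.8, 69.0 and 191 in Smad4-on lungs and at most 17.9 elsewhere (chr16:93094088-93094584). A pair of intronic peaks of Cacna2d3, which encodes a calcium channel subunit, an intronic peak of the kinase gene Stk32b and a peak between genes with Eef2kmt as the nearest start site had ratios of 4.25 to 4.89. Smad4-on lung replicate 3 held the highest value in all 10.

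**Figure D2:**
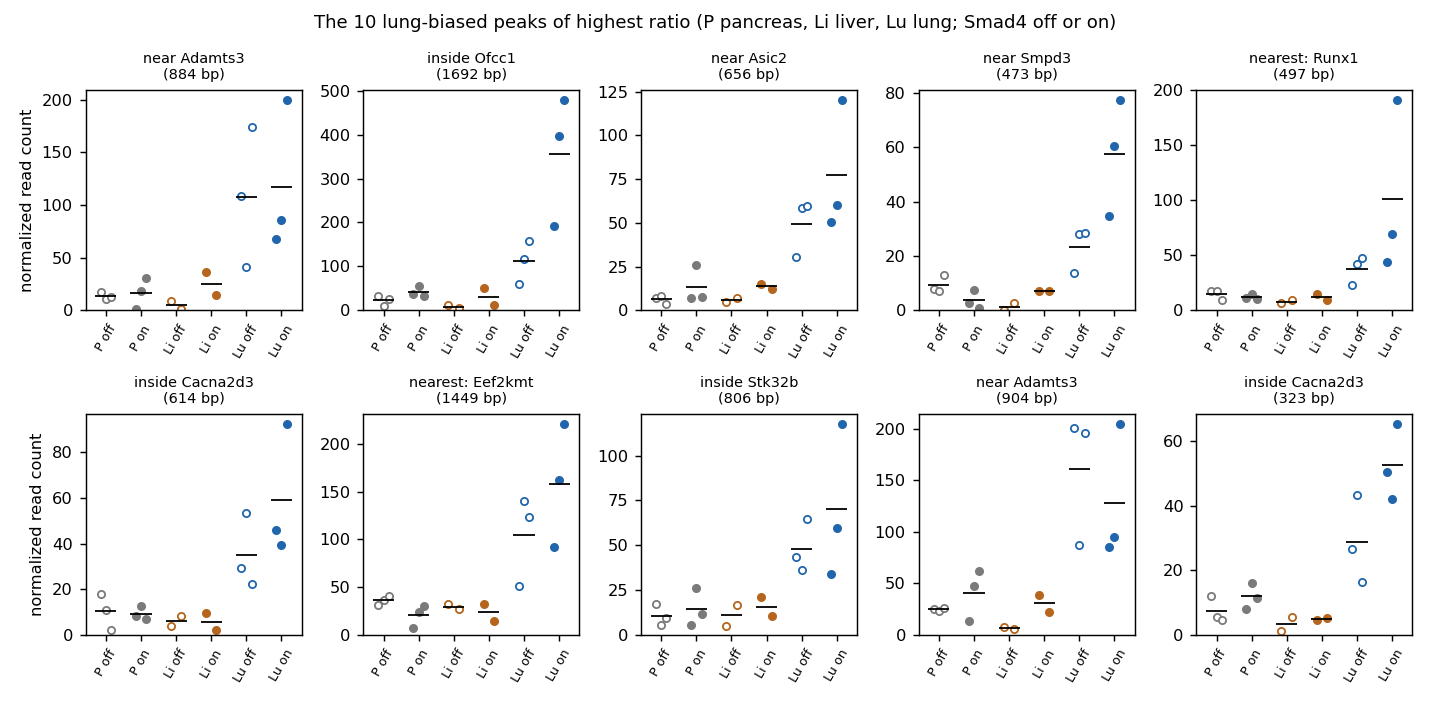
Normalized read count of the 10 lung-biased peaks of highest ratio with no overlap between lung and other libraries, 1 panel per peak with its width, with 1 point per library (open, Smad4 off; filled, Smad4 on; gray pancreas, brown liver, blue lung) and a bar at each group mean. The lung points lie above all others in each panel, the spread among lung libraries is wide, and the highest point of every panel is Smad4-on lung replicate 3.

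A separate question was whether the bias recurred in the mice of the other Smad4 state. The rule was applied to one state and read in the other. The states are not independent samples of the lungs, since lung libraries with the same replicate number deviated together across them, and the test had no block. Applied to the Smad4-off libraries alone it took 3279 peaks. In Smad4-on mice 262 of these (7.99%) were higher in the lungs than in both other organs by limma, at an absolute log2 difference of 0.58 or more and an adjusted p no greater than 0.1 (Benjamini-Hochberg), against 1.76% of all nuclear peaks, and 1824 (55.6%) had a higher average in Smad4-on lungs than in both other organs, against 20.8% of all peaks. Applied to the Smad4-on libraries alone, the rule took 973 peaks. In Smad4-off mice 233 of these (23.9%) passed the same test, against 2.33% of all nuclear peaks, and 807 (82.9%) had the higher average, against 26.1%. Of the 879 peaks, 220 were among the 262 and 207 among the 233, and 139 peaks were called both ways. Both shares lay above the background, yet most chosen peaks did not pass. Because the states are not independent and the 879 were chosen on both, these counts are a description and no separate support for the bias. The first count was sensitive to the libraries in which it was read. It was 107 without Smad4-on lung replicate 3, 134 without Smad4-on liver replicate 2, 121, 164 and 604 without Smad4-on pancreas replicates 1, 2 and 3. The second was 147 without Smad4-off lung replicate 3, and 147 and 122 without Smad4-off pancreas replicates 2 and 3. Without the share of all nuclear peaks in each of these fits, the counts do not show whether the excess over the background held.

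By state, 697 of the 879 peaks met the rule in the Smad4-off libraries alone, 373 in the Smad4-on libraries alone, 205 in both and 14 in neither.

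By position, these peaks were mainly distal. The centers of 432 lay between genes (49.1%) and those of 401 in introns (45.6%), whereas 27 lay in exons and 19 (2.16%) within 1000 bp of a protein-coding start site. Among all nuclear peaks, 9.76% were promoter peaks, 42.2% intronic and 45.6% intergenic. The liver set held 5.12% and the pancreas set 3.17% promoter peaks. The median distance to a start site was 51207 bp for the lung-biased peaks, 27233 bp for all peaks, 21794 bp for the liver set and 45680 bp for the pancreas set. Width and base composition were close to those of the table, with a median width of 649 bp against 588 bp and a median GC content of 46.1% against 45.8%. A gene start lay within 100 kb of 604 peaks (68.7%, against 78.9% of all), which gave 493 genes, 415 of them with 1 lung-biased peak, 59 with 2 and 19 with 3 or more. For the other 275 peaks no gene is assigned. Nearness does not show which gene a peak acts on. Chromosomes 19 and 5 held the highest shares (1.09% and 1.01% of their peaks) and chromosome X the lowest of those with any (0.273%, 10 peaks).

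Promoters among these peaks were few and low in count. That of Trpc6, a receptor-operated calcium-permeable channel, had lung counts of 25.8, 71.7 and 96.5 with Smad4 off and 56.2, 60.4 and 164 with Smad4 on, and a ratio of 4.54 (chr9:8543883-8544578). Its liver counts were 6.17 and 4.18 with Smad4 off and 47.8 and 4.06 with Smad4 on, so that Smad4-on liver replicate 1 overlapped the lungs. The Galntl6 promoter, of a putative glycosyltransferase, reached 225 in Smad4-off lung replicate 1 but 25.8 and 28.8 in Smad4-on lung replicates 1 and 2 (ratio 3.71). At the promoter of Dync1i1, a dynein motor chain, lung counts ran from 48.8 to 204 (ratio 3.33). Reep1, which shapes endoplasmic reticulum membranes, had 45.1, 68.5 and 74.1 with Smad4 off and 104, 215 and 211 with Smad4 on in the lungs (ratio 3.16). Amn, the membrane partner of cubilin, showed the opposite order, with 192, 135 and 99.9 with Smad4 off and 68.5, 20.1 and 51.3 with Smad4 on (ratio 2.90). Cldn14, a tight-junction claudin, had 25.8 to 62.5 in the lungs and at most 25.0 elsewhere (ratio 2.60). Of the 6 it alone had no overlap with the other organs. Values outside the lungs reached 92.0 at Dync1i1, 65.9 at Reep1, 47.7 at Amn and 45.7 at Galntl6, each above the lowest lung value. None of the 6 passed the restoration test in the lungs.

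Some of the peaks stood in runs. Counting neighbors no more than 50 kb apart, 305 of the 879 (34.7%) were in 117 runs of at least 2 peaks and 17 runs had at least 4. In the far larger liver and pancreas sets 78.9% and 68.4% had such a neighbor, shares that rise with the size of a set. The longest run lay at chr5:117588746-117791203, where 15 of 28 peaks were lung-biased, 14 of them inside Ksr2, a scaffold that brings RAF, MEK and ERK together. Their summed counts were 5346, 1708 and 482 in Smad4-off lungs and 1067, 533 and 874 in Smad4-on lungs, and 186 to 910 elsewhere. All 15 were highest in Smad4-off lung replicate 1. The sums of Smad4-off lung replicate 2 and Smad4-on lung replicate 1 were also above all others, and those of the remaining lung libraries were within the range of the other organs. The tallest of them (chr5:117605476-117607195) had 650 in that library and 340.2, 95.6, 177, 108 and 132 in the other lung libraries. Over the 82 peaks between 116 and 118 Mb of this chromosome, the median deviation of that library from the mean of all libraries was 0.72 on the log2 scale, against −0.86 to 0.34 in the other 15. Whether copy number had a part in it was not tested.

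Other runs were shared by more of the lung libraries. Around Ttc7b, whose product helps place phosphatidylinositol 4-kinase at the plasma membrane, 7 of 31 peaks were lung-biased (chr12:100208372-100346940). Their sums were 527, 627 and 973 in Smad4-off lungs and 619.9, 879.9 and 757 in Smad4-on lungs, and 196 to 390.1 elsewhere. Beside Adamts3, 6 of 11 peaks were lung-biased (chr5:89935728-90079661), with sums of 767, 384 and 1069 in Smad4-off lungs, 492, 578 and 1188 in Smad4-on lungs and 55.7 to 366 elsewhere. In both runs the 6 lung sums stood above the 10 others. In and around Rps6ka2, a kinase of the RSK family downstream of ERK, 7 of 11 peaks were lung-biased (chr17:7156505-7212154). Here the sums were 1282, 834 and 787 in Smad4-off lungs and 1150, 143 and 409 in Smad4-on lungs, while Smad4-on pancreas replicate 3 reached 1022 and the other non-lung libraries 49.4 to 311. Rps6ka2 was thus shared between some lung libraries and 1 pancreas library, and 2 lung libraries were near or within the range of the others.

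**Figure D3:**
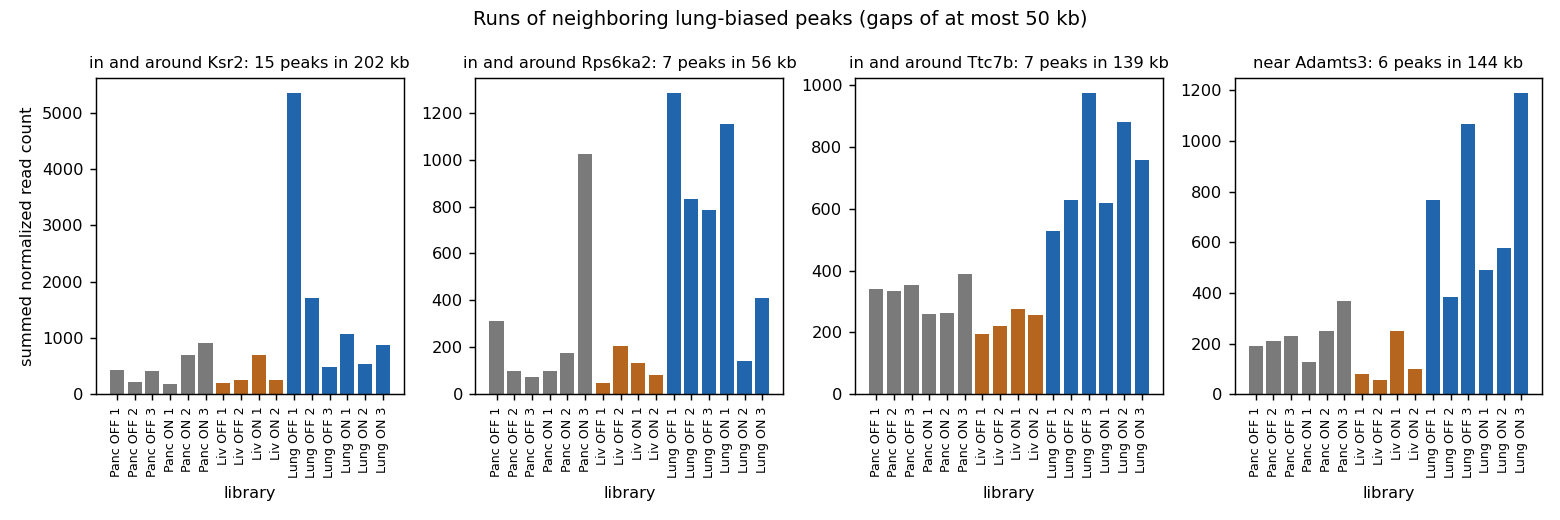
Summed normalized read count of the lung-biased peaks of 4 runs in each of the 16 libraries, as bars from 0 (gray pancreas, brown liver, blue lung). The Ksr2 run is carried by Smad4-off lung replicate 1 (5346), the Rps6ka2 run is also high in Smad4-on pancreas replicate 3 (1022), and the Ttc7b and Adamts3 runs are higher in all 6 lung libraries than in the 10 others.

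By gene, Rps6ka2 had the most lung-biased peaks, 7 of its 21. It was followed by Synpr, a synaptic vesicle protein (5 of 10), Adamts3 (5 of 15), Trpc6 (4 of 7), the crystallin gene Cryba4 (4 of 9), Dync1i1 (4 of 9), Syt7, a calcium sensor of vesicle fusion (4 of 9), Hsd17b12, an enzyme of long-chain fatty acid synthesis (4 of 12), Akap2, an anchor of protein kinase A (4 of 30), and Ildr2, a membrane receptor of the immunoglobulin family (3 of 8). The libraries behind them differed. The 4 Trpc6 peaks, the 4 Hsd17b12 peaks and 3 of the Adamts3 peaks were highest in Smad4-on lung replicate 3, whereas the 4 Cryba4 peaks and 4 of the Rps6ka2 peaks were highest in Smad4-off lung replicate 1. The tallest Trpc6 peak, in an intron, had 85.6, 93.5 and 134 in Smad4-off lungs, 87.6, 107 and 269.7 in Smad4-on lungs and 3.70 to 61.7 elsewhere. That of Cryba4 had 573, 209 and 348 in Smad4-off lungs, 222, 94.9 and 133 in Smad4-on lungs and 54.3 to 149 elsewhere. The tallest Syt7 peak ranged from 175 to 336 in the lungs and from 40.9 to 169 elsewhere, with no overlap.

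The cell type lists compared the identity of the sorted cells with that of cells which could be carried over from the host. A peak lay within 1000 bp of a start site for 12 of 12 genes of pancreatic carcinoma epithelium, such as Krt19, Krt8 and Epcam, with summed counts of 33311 to 46178 in the lungs, 25963 to 35590 in the pancreas and 52870 to 69399 in the liver, and none of these peaks was lung-biased. For lung epithelium, 7 of 14 genes had such peaks, with sums of 2659 to 3094 in the lungs and 2335 to 4855 elsewhere. For fibroblasts 12 of 17 had them, with 2732 to 3455 in the lungs and 2377 to 7605 elsewhere. Leukocyte genes (7 of 20) summed to 1337 to 1603 in the lungs and 975 to 1567 elsewhere. In each of these lists the lung range overlapped that of the other organs, and no listed promoter was at 0 in all lung libraries. Endothelium (7 of 14 genes) differed in 1 library, with 1360 in Smad4-off lung replicate 1 and 674 to 711 in the Smad4-on lungs and 463 to 737 outside the lungs. That height came from 1 lung-biased peak within Cdh5, the gene of VE-cadherin (chr8:104101474-104104188), which had 697 in that library, 129, 54.3, 111, 22.0 and 45.7 in the other lung libraries and 14.2 to 85.4 elsewhere. Without this peak the endothelial sums were 569 to 664 in the lungs and 432 to 710.2 elsewhere. A second intronic Cdh5 peak (chr8:104121359-104122588) had 746, 473 and 445 in Smad4-off lungs, 476, 322 and 616 in Smad4-on lungs and 80.2 to 448 elsewhere. The part of endothelial cells in these peaks was not tested.

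Of the 3971 peaks assigned to the genes of 18 lists, distal ones included, 17 were lung-biased (0.428%, against 0.643% of all nuclear peaks). The lists name 4 to 35 genes each and do not cover a pathway or class. The shares were 1.79% for endothelium and 1.70% for cytokines and chemokines, and they were 0 for 8 lists, among them 507 peaks of 35 genes of the TGF-beta and BMP pathway such as Tgfbr2 and Smad7, and 482 peaks of 35 genes of matrix, integrins and proteases such as Itga6 and Mmp14. Adamts3, Pappa and Hmcn1, described here with their lung-biased peaks, and Gdf10, a ligand of the BMP family with 2 of its 7 peaks lung-biased, are not on those lists. At the background share, lists of 66 to 177 peaks, such as those of AP-1 factors, epithelial-mesenchymal transition, basal and squamous identity, lung epithelium, fibroblasts and pancreatic epithelium, would hold about 0 or 1, so that their 0 carries little information. Of the peaks of Smad4 effectors, a list taken from the study and so not independent of these samples, 1 of 87 peaks was lung-biased, 49065 bp from the start of Col6a1, a chain of collagen VI. Its counts were 74.6, 53.3 and 81.9 in Smad4-off lungs, 67.4, 73.8 and 98.9 in Smad4-on lungs and 4.94 to 59.0 elsewhere.

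Among factor genes, an intronic peak of Runx3 (chr4:135171207-135172102) was the tallest, at 199, 136 and 330.0 in Smad4-off lungs and 227, 424 and 366 in Smad4-on lungs. Elsewhere it ran from 19.7 to 152, with Smad4-off pancreas replicate 1 above the lowest lung value. It was the only lung-biased peak of the 112 assigned to RUNX genes. Ets1 and Ets2 had 1 each (of 270 peaks of ETS genes), Foxq1 had 1 (of 312 of FOX genes) and Klf2 had 1 (of 260 of KLF and HNF genes). The Klf2 peak was 175 in Smad4-off lung replicate 1 and 21.1 to 74.1 in the other lung libraries, and 59.8 in Smad4-on pancreas replicate 3.

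Cytokine genes held 4 of 235, a pair each near Ccl2, a chemokine that attracts monocytes, and Tslp, an epithelial cytokine. The taller Ccl2 peak (chr11:82014774-82015703) had 258, 224 and 464 in Smad4-off lungs and 154, 195 and 300.5 in Smad4-on lungs, against 20.9 to 136 elsewhere, with no overlap. The Tslp peaks were highest in Smad4-off lung replicate 1 (163 and 165). Rspo3, which amplifies Wnt signals, had 2 of the 437 peaks of the Wnt list. Nrp2, a receptor of semaphorins and VEGF-C, and Epha4, an ephrin receptor, had 1 each of the 338 of the axon guidance list. The Nrp2 peak, in an exon, was even across the lungs, with 172, 129 and 149.9 with Smad4 off and 165, 139 and 212 with Smad4 on, against 40.9 to 93.4 elsewhere. Cybb, the oxidase subunit of phagocytes, had 1 of the 73 leukocyte peaks, at 24.7 to 93.1 in the lungs and 7.11 to 59.0 elsewhere. The leukocyte list leaves out Il7r, Csf3r and Irf8. Lung-biased were 2 of the 5 Il7r peaks, 2 of the 6 Csf3r peaks and an exonic peak of Irf8. The Irf8 peak had 138, 128 and 228 in Smad4-off lungs and 55.0, 14.4 and 50.4 in Smad4-on lungs, against 16.2 to 77.7 elsewhere. The part of host cells in these peaks was not tested.

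The letters of factor motifs were counted in the central 200 bases of each peak on both strands. AP-1 (TGACTCA) was present in 27.2% of the lung-biased peaks, against 12.8% of the liver set, 21.4% of the pancreas set and 22.3% of all peaks. RUNX (TGTGGT or TGCGGT) was in 25.9%, against 17.2%, 26.7% and 22.2%. FOX (TGTTTAC or TATTTAC) was in 13.1%, against 9.66%, 4.33% and 8.06%. For RUNX the share of the lung-biased peaks thus lay close to that of the pancreas set, and for AP-1 and FOX it lay above both sets.

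NF-kB (GGGANTTCC) was in 26 lung-biased peaks (2.96%), against 1.07% of the liver set, 1.06% of the pancreas set and 1.23% of all peaks. C/EBP (TTGCNNAA) was in 12.5%, against 10.2%, 10.0% and 9.62%. ETS (CCGGAAG or CAGGAAG) was in 12.2%, near the 11.3% of all peaks. The letters of some families were rarer than in the table. SNAI and ZEB repressors share an E-box (CAGGTG) that was in 7.74%, against 23.6% of the liver set, 6.61% of the pancreas set and 13.0% of all. TEAD (TGGAATG or AGGAATG) was in 8.87%, against 11.9%, 13.9% and 10.8%. KLF (GGGCGTGG or GGGTGTGG) was in 3.53%, near the 3.68% of all and between 6.61% and 1.60%. The palindromic SMAD site (GTCTAGAC) was in 0 of 879, against 0.234% of all. At that share few of the 879 would hold it, so that the 0 carries little information. In the central 400 bases it was in 1 (0.114%, against 0.414% of all). In the 179 peaks with no overlap between lungs and other organs the shares were 24.0% for AP-1, 25.7% for RUNX, 16.8% for FOX, 5.59% for NF-kB, 9.5% for C/EBP and 12.3% for the E-box, so that AP-1, C/EBP and the E-box were near the shares of all peaks there. These shares come from peaks the rule chose, no test was made of them, and families were searched independently, so that a stretch may count for more than 1 of them. Variants of a site outside the letters given, such as longer NF-kB sites, were not counted.

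**Figure D4:**
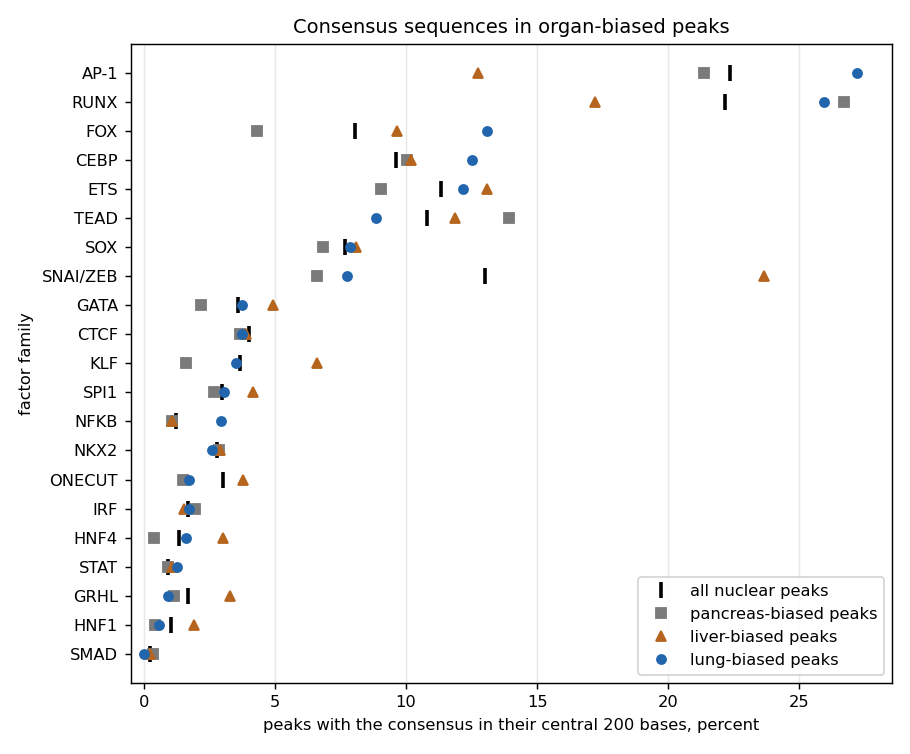
Share of peaks, in percent, whose central 200 bases hold each consensus, 1 row per factor family, for the lung-biased peaks, the liver set, the pancreas set and all nuclear peaks. AP-1 (27.2%), FOX (13.1%) and NF-kB (2.96%) are higher in the lung-biased peaks than in the other sets, and the E-box of SNAI and ZEB (7.74%) is far below the liver set (23.6%).

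The response of these peaks to Smad4 restoration was read in each organ. The rule pooled both states, so Smad4-on minus Smad4-off differences were not chosen, but a single high lung library can bring a peak in and also set its lung difference. In the lungs 0 of the 879 peaks passed the limma test at those limits, against 5 (0.00366%) of all nuclear peaks. With so few calls over all peaks, the 0 carries little information on whether these peaks depend on Smad4. Of the 879, 123 (14.0%) had an unadjusted p under 0.05, against 7.11% of all. edgeR called 0, and DESeq2 called 34 (3.87%, against 0.73% of all). Deviations of lung libraries with the same replicate number correlated, though the labels give no pairing. With that number as a block in the lungs 3 were called (0.341%, against 0.03% of all), which are named after their values were seen. The block was taken from the same values it was then fitted to, so its p-values here and below are a description. With the replicate number as a block within each organ 0 were called.

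Hsd17b12 was 1 of them, with 137, 118 and 143 in Smad4-off lungs and 298, 349.8 and 656 in Smad4-on lungs, a log2 difference of 1.62 ± 0.27 (SE; adjusted p = 0.077 with the block, 0.19 without it; limma). A peak inside Gabrb2, a GABA receptor subunit, had 30.4, 39.1 and 40.5 against 91.0, 173 and 349 and also lay higher with Smad4 on, by 2.25 ± 0.38 (adjusted p = 0.0997 with the block, 0.21 without; limma). In both peaks every Smad4-on lung value was above every Smad4-off one. A peak near Bdkrb2, a bradykinin receptor, was lower, with 219, 48.9 and 24.1 against 44.9, 7.67 and 5.60, a log2 difference of −2.24 ± 0.37 (adjusted p = 0.077 with the block, 0.50 without; limma). Its groups overlapped, and it fell within each replicate number.

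Over the 879 peaks the median log2 difference in the lungs was −0.21, with 329 above 0, while that of all nuclear peaks was 0.00. It was −0.08 without Smad4-off lung replicate 1 and −0.07 without Smad4-on lung replicate 2, and −0.37 without Smad4-off lung replicate 2. In the 205 peaks that met the rule in both states it was 0.06. It was −0.62 in the 375 peaks that were highest in Smad4-off lung replicate 1 and 0.34 in the 270 that were highest in Smad4-on lung replicate 3. Sorting peaks by their highest lung library itself draws the difference toward the state of that library. These last medians therefore describe the sorting and not a response.

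In the liver 5 peaks rose with Smad4 and 0 fell, 0.569% of the 879 against 0.55% of all nuclear peaks (0.462% higher and 0.0886% lower). A pair lay near Pappa, a protease that releases IGFs from their binding proteins. At the first (chr4:65053356-65053818) Smad4-off livers had 1.23 and 0 and Smad4-on livers 46.6 and 8.12, a log2 difference of 3.8 ± 0.66 (SE, adjusted p = 0.039, limma), which depends on the added count of 1 at such levels, since 0 reads here allow up to 4.18 normalized counts. Its lung values were 23.9, 17.4 and 36.2 with Smad4 off and 42.7, 57.5 and 76.5 with Smad4 on. At the second (chr4:65083336-65083793) the liver counts were 6.17 and 5.57 against 34.9 and 24.4, a difference of 2.14 ± 0.41 (adjusted p = 0.051, limma). An intronic peak of Synpr (chr14:13542847-13543397) had 9.87 and 9.75 against 44.3 and 27.4, and the Hsd17b12 peak 17.3 and 23.7 against 79.2 and 57.9 (adjusted p = 0.071 for both, limma). A peak near Fam19a5, which encodes a secreted protein of the brain, was the fifth. All 5 were low in both Smad4-off livers, and the liver rests on 2 libraries per state. Without Smad4-off liver replicate 1, or without Smad4-on liver replicate 1, 0 were called (against 0.0249% and 0.0022% of all). Without Smad4-on liver replicate 2, 22 were called (2.5%, against 1.88% of all). Libraries of other organs moved the count through the shared estimate of spread, to 12 without Smad4-on pancreas replicate 3 (1.37%, against 1.01% of all). It was 18 and 14 without Smad4-off lung replicates 1 and 2 (2.05% and 1.59%, against 1.61% and 1.73% of all). It was 2 or 3 without Smad4-off pancreas replicate 1, 2 or 3, Smad4-on pancreas replicate 2 or Smad4-on lung replicate 2 (0.228% or 0.341%, against 0.195% to 0.281% of all). With the block in the lungs 19 were called (2.16%, against 1.47% of all). The median log2 difference was 0.34, with 600 above 0, and it was 0.17 without Smad4-on liver replicate 1 and 0.18 without Smad4-off liver replicate 1.

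In the pancreas 11 peaks (1.25%) changed, 3 higher and 8 lower, against 3.42% of all nuclear peaks (0.364% higher and 3.06% lower). The lower group held Ffar4, a receptor of long-chain fatty acids, Zfp36l2, which promotes mRNA decay, and Tsc22d3, a gene induced by glucocorticoids. Near Ffar4 (chr19:38091281-38093950) the pancreas had 655, 599 and 682 with Smad4 off and 318, 213 and 420.0 with Smad4 on, a log2 difference of −1.07 ± 0.22 (SE, adjusted p = 0.027, limma). Its lungs had 754, 948 and 1046 against 884, 1238 and 1582, so that this peak fell in the pancreas while its lung values did not pass the test. Near Zfp36l2 the pancreas fell from 62.3, 96.5 and 84.3 to 14.2, 39.6 and 16.9 (−1.86 ± 0.42, adjusted p = 0.036, limma), and near Tsc22d3 from 35.9, 41.1 and 41.7 to 12.4, 18.6 and 11.5 (−1.44 ± 0.34, adjusted p = 0.041, limma). None of these pancreas groups overlapped.

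The 3 peaks that rose in the pancreas were lower in counts. A peak with Adamts16 as the nearest start site had 6.83, 1.79 and 5.56 with Smad4 off and 8.89, 29.7 and 44.5 with Smad4 on (2.20 ± 0.62, adjusted p = 0.083, limma). A second Synpr peak (chr14:13486446-13487363) had 9.39, 17.9 and 13.0 against 28.4, 48.3 and 55.2 (1.63 ± 0.46, adjusted p = 0.083, limma). A peak in an intron of Mcoln2, nearest to the start of Lpar3, a receptor of lysophosphatidic acid, had 5.98, 4.47 and 7.41 against 32.0, 24.8 and 36.0 (2.21 ± 0.65, adjusted p = 0.098, limma). None of these rises was called without Smad4-on pancreas replicate 3, the library in which the 879 peaks were highest outside the lungs. Without it 16 peaks were called (1.82%, against 3.57% of all), all lower, and the median log2 difference fell from 0.34 to 0.01. That median was 0.61 without Smad4-on pancreas replicate 1 and 0.21 without Smad4-off pancreas replicate 2. Without Smad4-off pancreas replicates 1, 2 and 3 the counts were 3, 0 and 2 (0.341%, 0% and 0.228%, against 0.908%, 0.332% and 1.24% of all). Without Smad4-on pancreas replicate 2 the count was 3 (0.341%, against 1.35%). Without Smad4-off liver replicate 2 or Smad4-on lung replicate 2 it was 7 (0.796%, against 2.65%). Without Smad4-off lung replicates 1 and 2 it was 32 and 22 (3.64% and 2.5%, against 6.05% and 5.15%). With the block in the lungs 45 were called (5.12%, against 6.51% of all).

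Averaged over the 3 organs, 57 peaks (6.48%) changed, 40 higher and 17 lower, against 6.62% of all nuclear peaks (3.61% higher and 3% lower). The Hsd17b12 peak had the smallest p of those that rose, with a log2 difference of 1.32 ± 0.18 (SE, adjusted p = 0.0028, limma), and its Smad4-on values were above its Smad4-off values within each organ. The first Pappa peak rose by 2.21 ± 0.34 (adjusted p = 0.0040, limma), and so did a peak with Evc2 as the nearest start site, a gene of the cilium base that acts in hedgehog signaling (chr5:37442778-37443757), by 1.21 ± 0.22 (adjusted p = 0.0090, limma). The last had 112, 76.1 and 114 against 91.0, 189 and 245 in the lungs, 40.1, 33.9 and 22.2 against 64.9, 69.3 and 66.7 in the pancreas and 12.3 and 18.1 against 75.7 and 42.7 in the liver, with overlap in the lungs alone. Of the 5 Synpr peaks 4 were called higher, though their lung differences were −0.26 to −0.14 and passed no test.

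Among those that fell, the peak assigned to Tgif1, a corepressor that binds SMAD proteins, lies in an intron of Dlgap1 (chr17:70762226-70763129). It had 309, 196 and 341 with Smad4 off and 166, 130.4 and 132 with Smad4 on in the lungs, 131 and 117 against 62.9 and 64.0 in the liver, and 119.6, 132 and 123 against 61.3, 65.6 and 117 in the pancreas. Smad4-on values were below Smad4-off values in each organ, and the averaged log2 difference was −0.86 ± 0.16 (adjusted p = 0.010, limma). Hmcn1, an extracellular matrix protein, had 72.7, 148 and 201 against 53.9, 61.3 and 85.8 in the lungs (average −1.07 ± 0.22, adjusted p = 0.014, limma). Pald1, a phosphatase-like gene, had 192, 247 and 385 against 66.3, 86.3 and 179 in the lungs (average −1.06 ± 0.22, adjusted p = 0.015, limma). The number called was 111 without Smad4-off lung replicate 1 (12.6%, against 11.9% of all). It was 36 without Smad4-off lung replicate 2 or Smad4-off pancreas replicate 2 (4.1%, against 3.89% and 4.6% of all). Without Smad4-off liver replicate 1 or Smad4-on liver replicate 1 it was 20 (2.28%, against 2.76% and 2.57% of all).

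**Figure D5:**
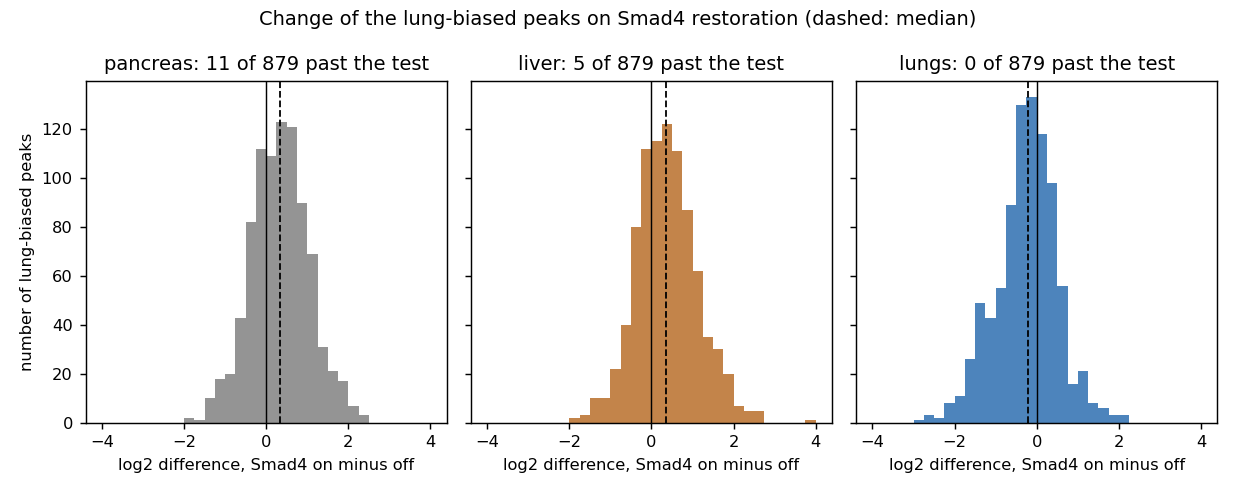
Histograms of the log2 difference, Smad4 on minus Smad4 off, of the 879 lung-biased peaks in the pancreas, liver and lungs, with the number of peaks on the vertical axis, a solid line at 0 and a dashed line at the median. The medians are 0.34, 0.34 and −0.21, and 11, 5 and 0 peaks passed the test.

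Whether the response differed between organs was tested as the difference of the differences. Both contrasts hold the lung values that the rule used, and a single high lung library can bring a peak in and also set them. A share above that of all peaks is therefore no result about these peaks. Lungs minus pancreas gave 0 calls, against 0% of all nuclear peaks, with 165 of the 879 peaks at an unadjusted p under 0.05 (18.8%, against 10.96% of all). DESeq2 called 34 (3.87%, against 1.65% of all). Lungs minus liver gave 0 as well, against 0% of all, with 83 at an unadjusted p under 0.05 (9.44%, against 5.25%). With a block within each organ 5 peaks were called for lungs minus pancreas (0.569%, against 0.182% of all). With the replicate block in the lungs, taken from the data alone, 33 were called (3.75%, against 1.75% of all). These were 11 with a more positive and 22 with a more negative difference in the lungs. Zfp36l2 was among the former, with 59.8, 123 and 114 against 110.1, 212 and 309.8 in the lungs, a difference of differences of 2.89 ± 0.48 (SE, adjusted p = 0.030 with the block, 0.23 without it; limma), as were Ffar4 (1.48 ± 0.26, adjusted p = 0.037 with the block; limma) and an intronic peak of Reep1 (2.17 ± 0.37, adjusted p = 0.031 with the block; limma). The peak near Bdkrb2 was among the latter (−3.46 ± 0.52, adjusted p = 0.023 with the block; limma). Without Smad4-off lung replicate 2, and with no block, 39 were called (4.44%, against 2.93% of all). The medians were −0.50 for lungs minus pancreas and −0.57 for lungs minus liver, the former being −0.21 without Smad4-on pancreas replicate 3, −0.33 without Smad4-off lung replicate 1 and −0.79 without Smad4-on pancreas replicate 1, and the latter −0.41 without Smad4-on liver replicate 1.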

How the data were processed

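Each of 16 ATAC-seq libraries, 1 mouse each, was placed in 1 of 6 groups by its title. The deposited values are a signal, read counts of each peak after scaling. To make them the authors used Trim Galore and cutadapt for trimming, Bowtie2 for alignment to mm10 and MACS2 for peaks (p at most 0.001, blacklist removed). They merged peaks of all samples that lay within 500 bp, counted with featureCounts and applied size factors of DESeq2. The table is called filtered, and the filter is not given in the sources used here, nor are duplicate removal and a Tn5 shift. Such scaling takes most peaks as unchanged. 100% of values were whole multiples of 1 read (tolerance 0.01 reads), which gave 23.0 to 38.2 M reads in peaks per library. The mitochondrial row (1.43% to 3.56% of reads) was left out. Limits from counts cover counting error only.

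limma 3.58.1 in R 4.3.3 (trend, robust) was fitted to log2(normalized count + 1) with 6 group means over all 16 libraries. On this scale changes of low peaks are understated. The Benjamini-Hochberg adjustment ran over 136630 nuclear peaks with no low-value filter, and calls required an absolute log2 difference of 0.58 or more with an adjusted p of 0.1 or less. Positions are 1-based on mm10, sequence is GRCm38.p6, and a gene is the GENCODE vM21 protein-coding start nearest the peak center within 100 kb, a promoter a center within 1000 bp of a start. For cell type lists any peak reaching within 1000 bp counted, since merged promoter peaks can be wide and off center.

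The labels number replicates alike in each group. In the lungs, same-numbered libraries deviated from their groups together (correlations 0.491, 0.124 and 0.214), so these numbers were taken to pair lung libraries, from the data alone. Pancreas (−0.33, 0.027, −0.33) and liver (0.083) numbers were not. No batch is labeled.

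Named were the 10 peaks of highest ratio without overlap, the 3 called peaks of smallest p per contrast and direction, the tallest peak of the 10 genes with most of them, 6 promoters, 2 peaks either side of each threshold and the tallest of each list, with any others named after their values were seen. For the genes with most peaks and for lists some are given by counts alone. The 879 peaks and the gene lists were chosen with earlier results of these data known. Alternatives, including edgeR 4.0.16 and DESeq2 1.42.0 on recovered reads, follow in the closing part. The shRNA acts on Smad4 mRNA, so peak counts do not check the Smad4 labels. The limma fit was tested on simulated counts, for restoration in the lungs. An allele that all groups share is not reported here.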

Additional observations from a re-analysis of the deposited data

How the results depend on the processing

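Depth limits low peaks most, and liver results rest on 2 libraries per state. Over the summary counts and all alternatives, 169 values stayed within 1.5 times the reported count and 76 did not, and the cause was not tested. Leaving out Smad4-off lung replicate 1 and Smad4-on lung replicate 3 together was chosen after seeing the data.

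The number of lung-biased peaks was 1411 with a minimum of 20, 454 with 80, 3838 with a ratio of 1.5, 128 with 3, 3279 from the Smad4-off libraries alone, 543 without both lung libraries and 691 to 1917 with single libraries left out. Restoration in the lungs, with 0 calls, gave 3 with the lung replicate block, 34 with DESeq2, 1 without both lung libraries and 0 to 1 with single libraries left out. For the liver and pancreas, calls over all peaks tested are given in brackets. In the liver, with 5 calls (752), it gave 1 (146) at thresholds of 1 and 0.05 and 0 (433) at a pseudocount of 10. It gave 9 (883) with peaks of mean at least 20, 10 (1201) with TMM factors and 1 (320) with quantile normalization. It gave 0 (81) with the liver groups alone, 2 (356) with edgeR and 16 (3184) with DESeq2. It gave 15 (1725) without both lung libraries and 0 to 22 with single libraries left out. In the pancreas, with 11 calls (4675), it gave 4 (1514) at the stricter thresholds and 27 (8283) with quantile normalization. It gave 18 (5879) with the pancreas groups alone, 18 (5201) with edgeR and 59 (9294) with DESeq2. It gave 28 (7976) without both lung libraries and 0 to 32 with single libraries left out. Averaged over organs, with 57 calls, it gave 19 at the stricter thresholds, 36 at a pseudocount of 10, 88 with DESeq2, 97 without both lung libraries and 20 to 111 with single libraries left out. The shares of all peaks moved as well. DESeq2 called 1.82% against 2.33% of all in the liver, 6.71% against 6.8% in the pancreas and 10% against 7.84% on average. Without both lung libraries these were 1.71% against 1.26%, 3.19% against 5.84% and 11% against 12.5%. edgeR called 0.228% against 0.261% in the liver and 2.05% against 3.81% in the pancreas. Lungs minus pancreas, with 0 calls, gave 34 with DESeq2 and 0 to 39 with single libraries left out, and lungs minus liver stayed at 0 under each alternative run. Peaks picked with Smad4 off and called with Smad4 on, 262 as reported, were 127 at the stricter thresholds and 139 without both lung libraries. They were 107 to 604 with single libraries left out. Those picked with Smad4 on, 233 as reported, were 122 at the stricter thresholds and 275 without both lung libraries. They were 122 to 274 with single libraries left out. The share of all peaks in these fits is not given, so these counts do not show whether the excess over the background held.

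The replicate number as a block within each organ called 0 peaks in the lungs, 2 in the liver (0.228%, against 0.264% of all), 28 in the pancreas (3.19%, against 4.72%) and 5 for lungs minus pancreas. With a GC correction it called 0, 1 (0.114%, against 0.0556%), 30 (3.41%, against 4.65%) and 5 (0.569%, against 0.146%). The replicate block in the lungs only called 3, 19, 45 and 33. Neither block moved the averaged count past 1.5 times. The tests across Smad4 states had no blocked fit. Motif shares rose with the window, AP-1 from 17.3% in the central 100 bases to 36.3% in 400, and with 20 kb in place of 100 kb a gene was assigned to 262 peaks.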
